A study of Mus musculus with 4 samples.

Results

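Genes of the lysosome were examined in ventricles of mice without the orphan nuclear receptor ERRα and of wild-type mice. The list holds 37 genes for lysosomal hydrolases, lysosomal membrane proteins and the proteins that sort hydrolases to the lysosome, with Map1lc3a of the autophagosome, out of 8251 genes named on the array. Members were found by gene symbol among probe sets annotated to exactly 1 gene, which gave 52 probe sets, all 37 genes among them. The list was drawn up with results of the same knockout comparison known, and it starts from Lipa, Plbd1 and Gga2, whose signal was lower in knockout there. The values of these 3 genes are therefore a description and are given without a test. The other 34 genes were listed with those results known too.

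The lysosome breaks down proteins, glycans and lipids that reach it from endocytosis, from the secretory pathway and from autophagy, in which a double membrane encloses cytoplasm and fuses with the lysosome. Most of its soluble enzymes are tagged with mannose 6-phosphate in the Golgi, bound there by mannose 6-phosphate receptors, and loaded into clathrin carriers by GGA and AP-1 adaptors. In heart muscle, loss of single lysosomal proteins, such as the acid α-glucosidase GAA or the membrane protein LAMP2, is known to cause storage disease with cardiomyopathy. Many lysosomal genes carry an E-box element near the start site that the factor TFEB binds, whereas ERR receptors bind an extended nuclear receptor half-site.

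The data were 4 one-colour Affymetrix arrays of ventricle at baseline, 2 labelled ERRa ko and 2 labelled ERRa wt, with 1 scaled signal per probe set and array. The age, sex and strain of the mice, the way the allele was made and whether a sample was 1 animal or a pool are not given in the labels, so the replicate spread may be technical. Esrra, the targeted gene, matched the labels: its weaker probe set read 2688 and 2828 on the wild-type arrays and 83.6 and 55.2 on the knockout arrays. Both knockout values lay below a floor of 110, and against that floor the signal was at least 25.1-fold lower. Its stronger probe set read 8598 and 8038 in wild type and 922 and 1050 in knockout, 8.45-fold lower and above the floor on every array. Of 8 measured cardiomyocyte markers, none had a probe set that differed 1.5-fold without overlap. The 5' to 3' signal ratio of β-actin, a sign of RNA quality, was 0.694 and 0.813 in knockout and 0.966 and 0.909 in wild type. That of Gapdh was nearer, at 0.994 and 0.968 in knockout and 1.039 and 1.015 in wild type. That of the transferrin receptor overlapped, at 0.242 and 0.276 in knockout and 0.558 and 0.227 in wild type.

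The sequences before the start sites of the genes show what part of the list shares. The RefSeq promoter table (GRCm38.p6) held 31 of the 37 genes, and Asah1, Ctsb, Ctsh, M6pr, Map1lc3a and Npc1 were the other 6. A window from 250 bases before to 50 bases after the start site was searched on both strands. The motifs were the E-box core CACGTG, the extended form TCACGTG, which contains the core, and the half-site AAGGTCA. Windows of 20 bases around the core match nearest the start site are shown for 9 members, because the flanks differ while the core is shared; capitals mark the core with a preceding T or a following A.
Lamp1 (chr8:13159139-13159158, plus strand): accacaTCACGTGcggaacg
Ctsa (chr2:164833771-164833790, plus strand): agatgcTCACGTGAccagag
Ctsd (chr7:142387913-142387932, minus strand): cgcgtcTCACGTGAcccgtt
Ctsl (chr13:64370744-64370763, minus strand): tagaagcCACGTGctgatct
Gaa (chr11:119267816-119267835, plus strand): gtgcgaTCACGTGtttgact
Gla (chrX:134601187-134601206, minus strand): tctcggTCACGTGAgcaact
Glb1 (chr9:114401023-114401042, plus strand): tctgagTCACGTGgcctaca
Igf2r (chr17:12769701-12769720, minus strand): ctcaggTCACGTGAcgctcc
Gga2 (chr7:122021187-122021206, minus strand): gccccgTCACGTGcctctca

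The E-box core matched in 10 of 31 member genes (32.3%), against 11.5% of 6573 genes on the array and 8.09% of 27025 genes in the table. The tenth member was Plbd1, with a match from base 44 after its start site. The extended form matched in 9 members (29.0%), against 6.79% of the genes on the array and 4.29% of all genes. The half-site matched in 4 members, Ctsa, Gga2, Idua and Psap (12.9%), against 4.38% of the genes on the array and 5.38% of all genes. Lamp1 had 4 separate core matches, more than any other member in the table. These shares describe letters in a window and were not tested. No particular base before AAGGTCA was required, so a match is not a full receptor element. Binding by ERR receptors or TFEB at any match was not tested.

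The 250 bases before the start site are shown for the 3 genes with the largest differences below and for Lamp1, whose signal was near equal in both genotypes. Capitals mark matches to any of the motifs. The first is Lipa, at chr19:34527475-34527724, minus strand, then Plbd1, at chr6:136661894-136662143, minus strand, Gga2, at chr7:122021199-122021448, minus strand, and Lamp1, at chr8:13158911-13159160, plus strand.
Lipa: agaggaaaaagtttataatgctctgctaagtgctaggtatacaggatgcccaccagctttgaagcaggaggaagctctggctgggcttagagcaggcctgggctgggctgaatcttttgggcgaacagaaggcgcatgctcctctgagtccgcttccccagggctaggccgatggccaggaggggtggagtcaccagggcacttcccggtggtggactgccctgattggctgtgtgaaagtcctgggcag
Plbd1: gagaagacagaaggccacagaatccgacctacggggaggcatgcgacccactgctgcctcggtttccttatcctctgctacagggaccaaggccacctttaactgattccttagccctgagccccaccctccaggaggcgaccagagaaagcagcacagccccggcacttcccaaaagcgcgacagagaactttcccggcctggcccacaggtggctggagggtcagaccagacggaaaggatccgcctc
Gga2: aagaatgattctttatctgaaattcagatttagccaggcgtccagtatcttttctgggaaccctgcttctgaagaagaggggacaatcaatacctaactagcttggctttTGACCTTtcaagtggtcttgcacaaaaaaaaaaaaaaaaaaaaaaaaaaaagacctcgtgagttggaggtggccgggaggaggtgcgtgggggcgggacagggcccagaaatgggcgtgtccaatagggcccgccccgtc
Lamp1: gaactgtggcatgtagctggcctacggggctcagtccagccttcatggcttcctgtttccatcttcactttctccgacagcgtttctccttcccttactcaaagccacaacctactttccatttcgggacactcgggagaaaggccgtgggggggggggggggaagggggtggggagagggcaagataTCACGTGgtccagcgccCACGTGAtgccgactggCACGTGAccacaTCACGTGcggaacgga
Lipa had no match in its window. Plbd1 had none in the part shown. Gga2 had a half-site, printed on the other strand, beginning 140 bases before the start site, and its core match spans the start site itself.

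**Figure D1:**
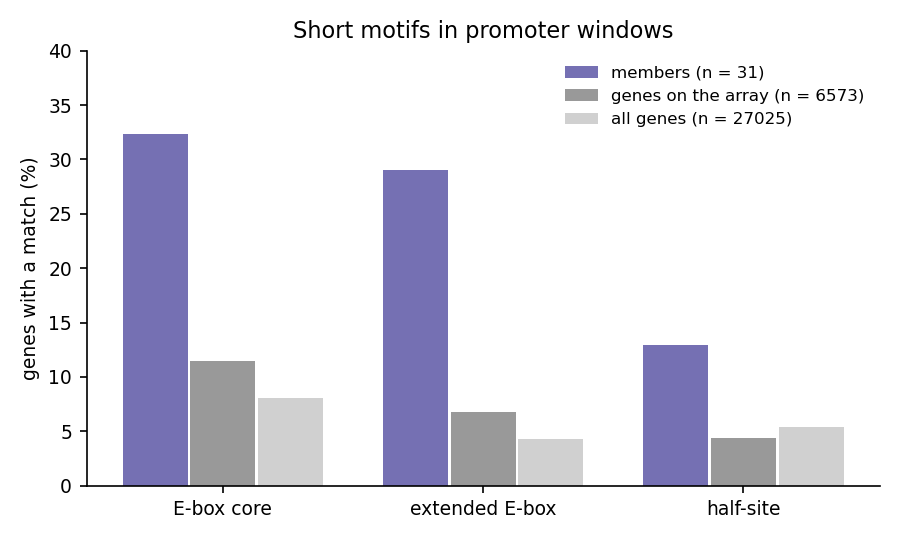
Share of genes with a motif match on either strand (y axis, percent) for the E-box core, the extended E-box and the half-site, in the 31 members with a promoter entry, the genes on the array and all genes of the table. The members' bars stand at 32.3%, 29.0% and 12.9%, above the bars of both other sets.

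Most of the list had clear signal in the ventricle. A probe set was kept when its mean over the 4 arrays reached 350.6, the 40th percentile, and 41 of the 52 member probe sets passed (78.8%, against 60% of all probe sets), covering 33 of the 37 genes. Gla, Galc, M6pr and Ppt1 had no probe set that passed. Lipa lay just inside this limit at a mean of 361.7, as did 1 probe set each of Ctsb and Ctsc at 363.4 and 368.0, and the highest means outside it were 204.8 for Gaa and 202.3 for Glb1. Lipa passed only through its wild-type arrays. Signals below 110 were set to 110 before log2 was taken, and differences are knockout minus wild type on that log2 scale.

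Over the list there was no common direction. Of the 41 kept probe sets, 20 had a lower and 21 a higher mean in knockout, against 46.8% lower and 53.2% higher over all 7453 probe sets tested. The median difference was 0.01, and over all probe sets it was 0.03. The median of the members' deviations from their 4-array mean was 0.06 and -0.09 on the wild-type arrays and -0.04 and 0.05 on the knockout arrays. The members' replicate SD had a median of 0.203 on the log2 scale, against 0.247 over all probe sets. In the limma fit 1 of 7453 probe sets passed an adjusted p of 0.05 (0.0134%), the weaker one of Esrra, and 0 of the 38 kept member probe sets outside Lipa, Plbd1 and Gga2 passed (limma adjusted p 0.694 to 0.999). The stronger Esrra probe set, 8.45-fold lower, did not pass either (limma adjusted p = 0.179), so not passing does not show that a gene was unchanged. At an unadjusted limma p under 0.05 there were 2 of those 38 member probe sets (5.26%, against 6.79% of all probe sets). One was Map1lc3a, lower in knockout, as were 2.66% of all probe sets at that p, and the other was Man2b1, higher in knockout, as were 4.13%.

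**Figure D2:**
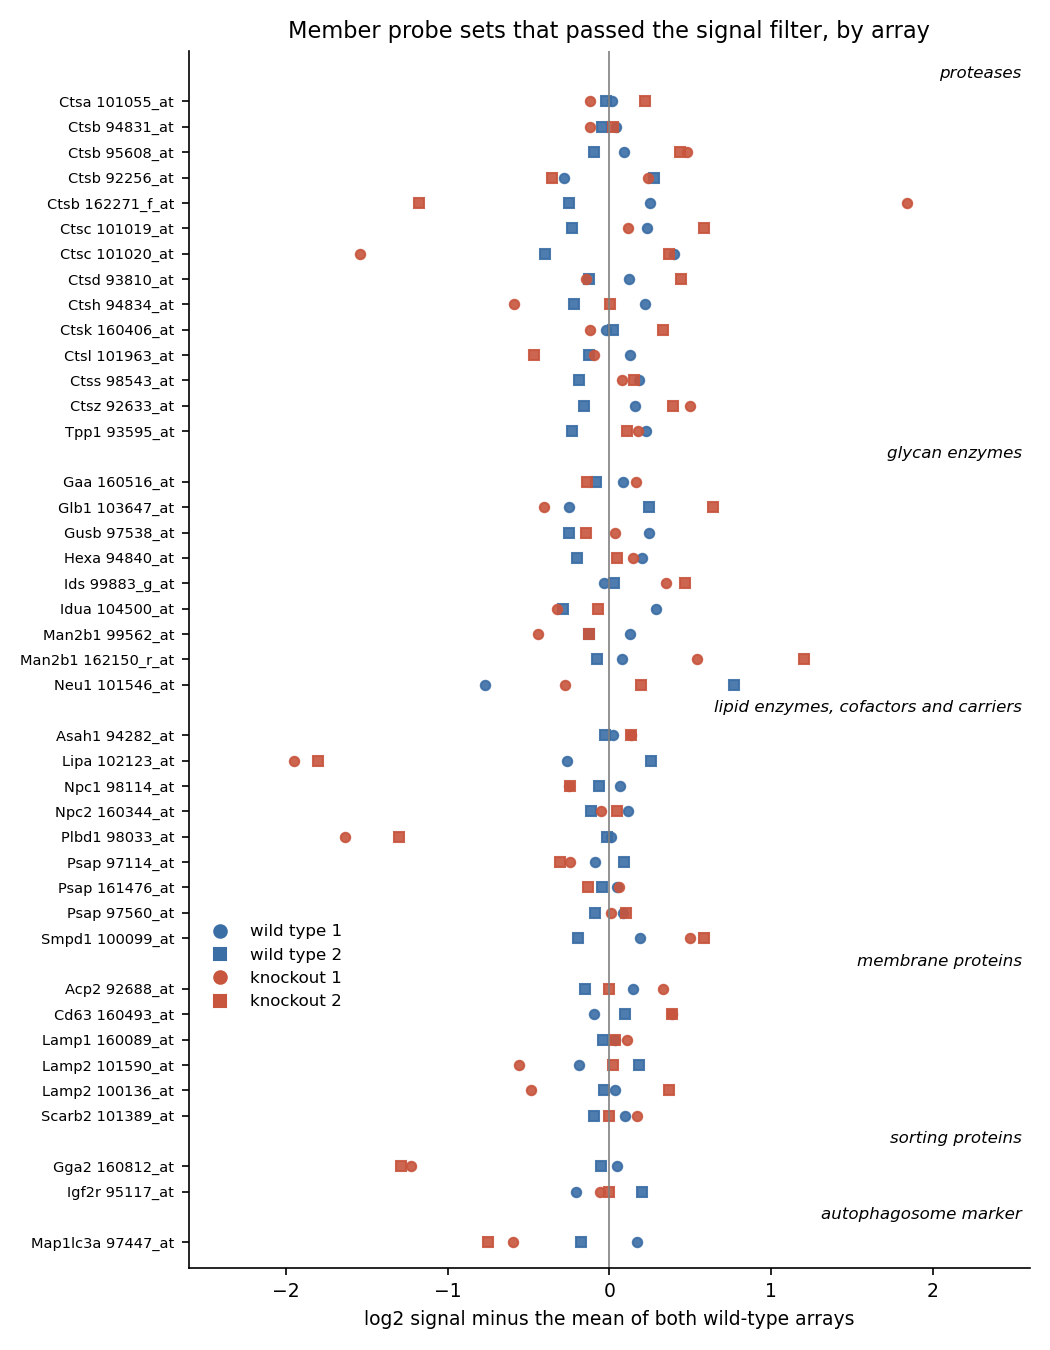
Each row is a member probe set that passed the signal filter, grouped by class. The x axis gives each array's log2 signal minus the mean of both wild-type arrays, with circles and squares for replicates 1 and 2. In 6 rows, among them Lipa, Plbd1, Gga2 and Map1lc3a, both red knockout points lie to the left of both blue wild-type points, in 7 rows both lie to the right, and in the others the genotypes overlap.

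Probe sets that differed by at least 1.5-fold with both knockout arrays on 1 side of both wild-type arrays were few. There were 4 lower in knockout, those of Lipa, Plbd1, Gga2 and Map1lc3a (9.76% of the kept member probe sets, against 4.20% of all), and 1 higher, of Man2b1 (2.44%, against 6.84%). Since 3 of the 4 lower ones were on the list because of this comparison, nothing is read from that share. Without Lipa, Plbd1 and Gga2, 1 of 38 was lower and 1 higher (2.63% each), and the median was 0.05. With no fold limit, 6 of the 41 were lower without overlap (14.6%, against 16.7% of all) and 7 higher (17.1%, against 20.7%).

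**Figure D3:**
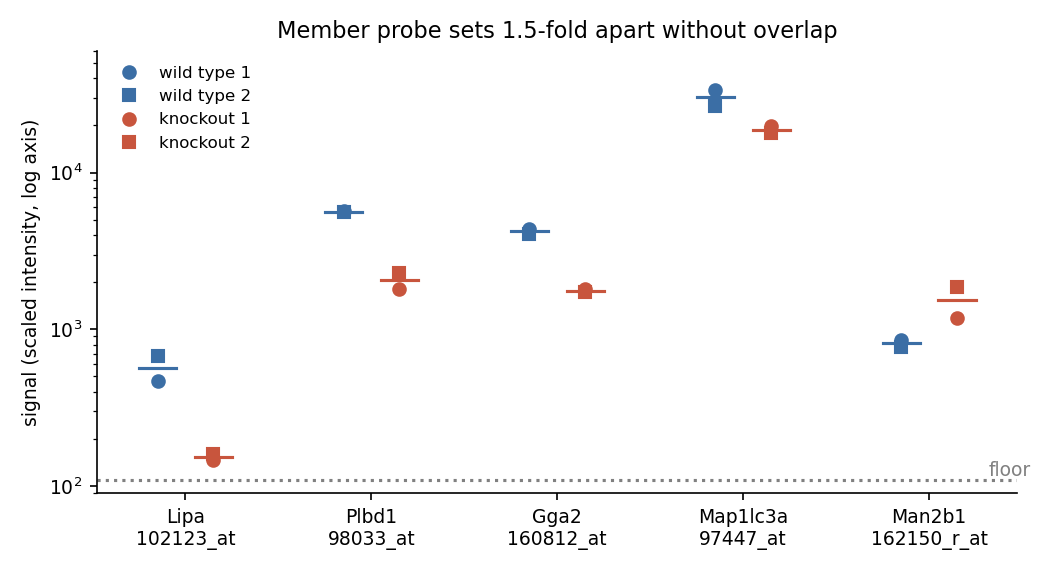
Signal on each array (y axis, log scale) of the 5 member probe sets that differed at least 1.5-fold without overlap, with bars at the group means and a dotted line at the floor of 110. In 4 of them both knockout points lie below both wild-type points, and in Man2b1 both lie above.

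Lipa encodes the lysosomal acid lipase, which splits cholesteryl esters and triglycerides delivered by lipoproteins or by autophagy of lipid droplets. Its probe set gave 468.2 and 672.3 in wild type and 145.5 and 160.9 in knockout. Both knockout arrays lay well below both wild-type arrays, and all 4 were above the floor. The group means were 570.2 ± 144 and 153 ± 10.9 (signal, SD, n = 2 each), and the log2 difference was -1.87 (SE 0.26), 3.67-fold. When the floor was raised to 340.8, the 40th percentile, the difference was -0.72, since both knockout signals then lay at the floor.

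Plbd1 encodes a phospholipase B-like protein of the lysosome. Its signals were 5672 and 5582 in wild type and 1814 and 2288 in knockout. The wild-type arrays were close together and both knockout arrays were far below them. The difference was -1.47 (SE 0.22), 2.76-fold. Without single arrays it ran from -1.63 to -1.30, which is a description and no sign of stability, since Plbd1 was listed because of this comparison.

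Gga2 encodes a clathrin adaptor that loads mannose 6-phosphate receptors at the Golgi. It gave 4374 and 4080 in wild type and 1805 and 1730 in knockout. Each pair was tight and the pairs did not overlap. The difference was -1.26 (SE 0.20), 2.39-fold. Its promoter window held the half-site, as did those of Ctsa, Idua and Psap. No probe set of Ctsa, Idua or Psap differed 1.5-fold without overlap. Any part of the half-site in the Gga2 difference was not tested.

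Of the receptors that work with Gga2, only Igf2r had a kept probe set, and it did not show the same pattern. Igf2r, the large mannose 6-phosphate receptor, gave 3636 and 4830 in wild type and 4027 and 4183 in knockout, with both knockout arrays between the wild-type ones. M6pr, the smaller receptor, was measured by 1 weak probe set at 34.1 and 83.9 in wild type and 97.2 and 231.6 in knockout, of which only the last was above the floor. A further probe set annotated to M6pr and its pseudogene was left out. Gga1, a related adaptor outside the list, gave 1148 ± 844 in wild type and 712.3 ± 527 in knockout, so its replicates differed more than its groups.

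Map1lc3a encodes a form of LC3, the ubiquitin-like protein attached to autophagosome membranes. It gave 33782 and 26604 in wild type and 19803 and 17794 in knockout. Every knockout array was below every wild-type array at this strong signal. The difference was -0.68 (SE 0.23, limma adjusted p = 0.694), which did not pass, and without wild-type replicate 1 it was -0.50, under 1.5-fold. The related Map1lc3b had differences of -0.04 and 0.08 on its 2 probe sets, Gabarap and Gabarapl2 had -0.09 and 0.02, and Gabarapl1 gave 5993 ± 622 in wild type and 4611 ± 405 in knockout (-0.38, no overlap).

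**Figure D4:**
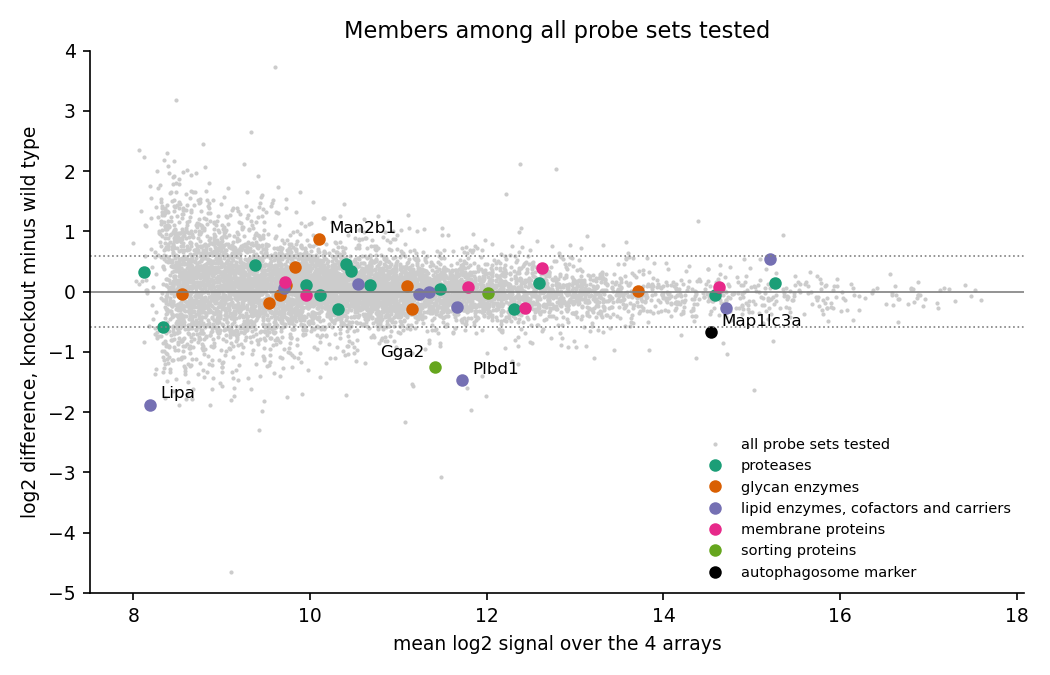
Log2 difference, knockout minus wild type (y axis), against the mean log2 signal over the 4 arrays (x axis) for all 7453 probe sets tested (grey) and the 41 kept member probe sets coloured by class, with dotted lines at 1.5-fold. Most members lie between the dotted lines, with Lipa at the weak end and Map1lc3a at the strong end of those outside.

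The cathepsins and tripeptidyl peptidase, the proteases of the lysosome, showed no common direction. Of 14 kept probe sets of 10 genes, 5 had a lower and 9 a higher knockout mean, the median was 0.11, and none differed 1.5-fold without overlap. Ctsd, the main aspartic protease, gave 40569 and 34133 in wild type and 33665 and 50663 in knockout. Knockout replicate 1 was the lowest of the 4 arrays and knockout replicate 2 the highest. Ctsb, a cysteine protease, gave 25723 and 24210 in wild type and 22934 and 25411 in knockout on its strongest probe set (-0.05), so the groups overlapped.

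The other proteases were read in the same way. Wild type and knockout had means of 5602 ± 688 and 4627 ± 836 for Ctsl (-0.28) and of 1426 ± 304 and 1175 ± 340 for Ctsh (-0.29), both with overlap. Ctss, a cathepsin known from antigen-presenting cells, gave 1591 ± 290 and 1710 ± 60.3, and Ctsk, known from bone-resorbing osteoclasts, 959 ± 21.8 and 1044 ± 229. Ctsz, a carboxypeptidase, was higher without overlap, at 637.9 and 513.1 in wild type and 808 and 750.3 in knockout (0.44, SE 0.22, limma adjusted p = 0.790), which did not pass. Ctsa, the protective protein that stabilises β-galactosidase and neuraminidase, differed by 0.05, and Tpp1, the tripeptidyl peptidase, by 0.15, both with overlap.

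Probe sets of 1 gene did not always point the same way. Ctsb had 4, with differences of -0.05, 0.46, -0.06 and 0.33, and only the one at 0.46 had no overlap, at 1232 and 1082 in wild type and 1611 and 1565 in knockout. Its weakest gave 892.5 and 55.9 on the knockout arrays, on either side of wild type. Ctsc, which activates granule proteases of immune cells, had 0.35 and -0.58 on its kept probe sets, both with overlap. Its weakest probe set, which did not pass the filter, gave 42.2 and 147.1 in wild type and 209.1 and 397.8 in knockout.

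Man2b1, the lysosomal α-mannosidase, had the sharpest such split. One probe set, whose suffix marks relaxed rules of probe selection, gave 857.9 and 771.6 in wild type and 1185 and 1871 in knockout (0.87, SE 0.30, limma adjusted p = 0.694), a difference that did not pass. Without knockout replicate 2 it was 0.54. The unsuffixed, stronger probe set gave 2739 and 2295 in wild type and 1850 and 2302 in knockout (-0.28), with overlap. The 2 probe sets therefore differed in sign.

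The glycan enzymes had 9 kept probe sets of 8 genes, 4 with a lower and 5 with a higher knockout mean (median 0.01), and only that of Man2b1 differed 1.5-fold without overlap. Gaa, the acid α-glucosidase that degrades glycogen in the lysosome, gave 14120 and 12569 in wild type and 14930 and 12094 in knockout (0.01). The knockout arrays lay on either side of both wild-type arrays. Hexa and Glb1, which act on gangliosides, differed by 0.10 and 0.12, and Gusb and Idua, which act on glycosaminoglycans, by -0.05 and -0.20, all with overlap. Neu1, the sialidase, varied most within a group, at 222.9 and 648.4 in wild type and 314 and 435.7 in knockout. Its difference was -0.81 when wild-type replicate 1 was left out and 0.73 when the other wild-type array was. Ids, the iduronate sulfatase, gave 770.9 and 805.7 in wild type and 1004 and 1090 in knockout (0.41, SE 0.20, limma adjusted p = 0.779), without overlap and not past the threshold. Its other 2 probe sets, a second one each of Gaa, Glb1 and Hexa, and the only one of Gla, the α-galactosidase, did not pass the filter. Gla lay between 22.6 and 40.5 on every array, below the floor, and no difference is given.

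The lipid enzymes, cofactors and carriers had 9 kept probe sets of 7 genes, 6 with a lower and 3 with a higher knockout mean (median -0.04). Besides Lipa and Plbd1, the largest difference among these was in Smpd1, the acid sphingomyelinase. Its strong probe set gave 35670 and 27321 in wild type and 44205 and 46903 in knockout. Both knockout arrays were higher, by 0.54 (SE 0.23, limma adjusted p = 0.748), and the difference did not pass. It was just under 1.5-fold, and after quantile normalization it was just over. A weak second probe set overlapped and did not pass the filter. Asah1, the acid ceramidase that takes the next step, gave 1451 and 1400 in wild type and 1565 and 1563 in knockout (0.13), without overlap but small.

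Psap, the precursor of the saposins that present sphingolipids to their hydrolases, gave 27644 and 31280 in wild type and 24810 and 23798 in knockout on its strongest probe set (-0.28, limma adjusted p = 0.829). The other 2 probe sets differed by -0.04 and 0.06 with overlap. Npc1, the membrane protein that exports cholesterol from the lysosome, gave 3710 and 3389 in wild type and 2984 and 2994 in knockout (-0.25, limma adjusted p = 0.837), while its soluble partner Npc2 differed by -0.00. These did not pass. Galc, the galactosylceramidase, gave 175.5 and 279.5 in wild type and 150.7 and 68.8 in knockout at a level under the filter. Ppt1, the palmitoyl-protein thioesterase, was below the floor on all arrays but knockout replicate 2, at 458.5.

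The membrane proteins, which make up much of the lysosomal limiting membrane, had 1 kept probe set that did not overlap between genotypes. It was higher in knockout (16.7% of the kept ones, against 20.7% of all probe sets). None was lower without overlap, against 16.7% of all probe sets. Of 6 kept probe sets of 5 genes, 2 had a lower and 4 a higher knockout mean, with a median of 0.08. Lamp1 gave 25430 and 24166 in wild type and 26787 and 25395 in knockout (0.07), with overlap. Lamp2, which is needed for fusion with autophagosomes, differed by -0.27 and -0.06 on its 2 probe sets, with overlap on both. Scarb2, the receptor that carries glucocerebrosidase, and Acp2, an acid phosphatase, differed by 0.09 and 0.17 with overlap. Cd63, a tetraspanin of late endosomes, gave 5190 and 5916 in wild type and 7248 and 7247 in knockout (0.39, SE 0.20, limma adjusted p = 0.795). It was higher without overlap and did not pass.

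The members' differences were also set against the sequences shown above, each gene by its strongest kept probe set. The 9 genes with an E-box core and a kept probe set had a median difference of 0.01, from -1.47 for Plbd1 to 0.15 for Ctsd, with 4 lower and 5 higher. The 19 without a match had 0.10, from -1.87 to 0.54, with 8 lower and 11 higher. The 4 genes with the half-site had a median of -0.24, from -1.26 for Gga2 to 0.05 for Ctsa, with 3 lower and 1 higher. The 24 without it had 0.09, with 9 lower and 15 higher. Psap counts as lower by its strongest probe set, and its other 2 differed by -0.04 and 0.06. Lipa, Plbd1 and Gga2 were listed because they were lower in this comparison, so nothing is read from these directions. These groups were not tested and are small.

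Related genes outside the list were read from 4 further lists, written with the earlier results known. Together they held 80 kept probe sets of 65 genes, with a median of 0.00 and 40 on each side of 0, and 3 were lower and 2 higher by 1.5-fold without overlap (3.75% and 2.50%, against 4.20% and 6.84% of all probe sets). None passed in limma, and 5 had an unadjusted limma p under 0.05 (6.25%, against 6.79% of all probe sets). Among other lysosomal genes, 1 of 19 kept probe sets was lower and 1 higher. These were a Ctse probe set, for the aspartic protease cathepsin E, at 1303 and 2254 against 994.4 and 1283, and Acp5, the tartrate-resistant phosphatase, at 536.8 and 535.4 against 581.5 and 1444. None of the 15 kept probe sets of the proton pump that acidifies the lysosome differed by that much, and their median was -0.05.

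Of 22 kept probe sets for autophagy and the TFEB family, Pik3c3, the lipid kinase that starts autophagosome formation, was lower at 547.3 and 628.8 against 392.3 and 379.8. Mitf, a TFEB relative, was higher at 330 and 287.1 against 584 and 422.4, and Tfeb itself did not pass the filter. Of 24 kept probe sets for sorting, Snx2, a sorting nexin, was lower on 1 probe set at 654.3 and 801.6 against 451.4 and 467.9, with a difference of -0.22 on a stronger one. The counts of 3 lower and 2 higher became 0 and 1 with a pseudocount in place of the floor, and 6 and 0 after median scaling.

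Some cathepsins are abundant in cell types other than heart muscle cells, and markers of those cells were read on the same arrays. Of 17 macrophage markers, 10 had a kept probe set and 7 did not. None of their 12 kept probe sets differed 1.5-fold without overlap, and their summed signal was 26687 to 32079 in wild type and 30474 to 32690 in knockout. Macrophage probe sets below the filter went both ways: 2 were lower and 3 higher by 1.5-fold without overlap. Adgre1, the gene of the macrophage antigen F4/80, was lower on its stronger probe set, at 396.5 and 499.7 in wild type and 176 and 202 in knockout, and 1 probe set of Ptprc was lower too. Itgam was higher, at 88.3 and 81.3 in wild type and 156 and 330.1 in knockout, as was 1 probe set each of Fcer1g and Cd68, and the wild-type signals of these 3 lay below the floor. The 9 measured of 10 fibroblast markers summed to 66169 and 75673 in wild type and 89366 and 91222 in knockout. Most of that was Dcn, at 42240 and 50324 against 58034 and 58177. Of their 13 kept probe sets, 4 were higher by 1.5-fold without overlap (30.8%, against 6.84% of all) and none lower. The marker below the filter, Mmp2, was lower in that way on both its probe sets. They gave 575.4 and 368.2 against 332.5 and 41.4, and 154.5 and 183.3 against 97.2 and 95.7. The 3 measured of 4 atrial markers summed to 10604 and 8805 against 17249 and 16639. The 3 measured of 4 adipocyte markers had 4 kept probe sets. Of these, 2 were higher and 1 lower by 1.5-fold without overlap (50% and 25%, against 6.84% and 4.20% of all). Adipoq was higher at 188.6 and 297.3 against 685.7 and 603.9. Lep was higher on 1 of its probe sets (0.76), and its other kept one differed by -0.76 with overlap. Cidea, which brown fat also expresses, was lower at 2222 and 2076 against 1315 and 1224. The 9 endothelial markers summed to 38410 and 31847 against 30835 and 28242. Of their 10 kept probe sets, 9 had a lower and 1 a higher knockout mean. With no fold limit, 4 were lower without overlap (40%, against 16.7% of all) and none higher (against 20.7% of all). None differed 1.5-fold without overlap. In these bulk samples fewer cells of a type and less RNA per cell cannot be told apart. The part of these cells and of the 5' to 3' ratios in the members' differences was not tested.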

How the data were processed

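Gene expression was measured in 4 ventricle samples. Each deposited value is a linear intensity that the authors had scaled: with 2% of probe sets trimmed at either end, every array had a mean of 1501. Per the labels' protocols, total RNA was made into biotin-labelled cRNA. The summary method, the background correction and the software are not given in the sources used here. With 4 arrays, their number limits the precision.

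Probe sets were named from the platform annotation, in which 10833 had 1 gene symbol, 396 several and 1193 none, and 10817 of the first were matched to RefSeq (GRCm38.p6). Igf2 and Neurl1a, which carry a member's name only as a synonym, were not members. The 66 control probe sets were left out. After the filter and floor given above, genotypes were compared over 7453 probe sets with limma 3.58.1 in R 4.3.3 (lmFit, eBayes, Benjamini-Hochberg). SE is limma's moderated standard error of the log2 difference. With 2 arrays per genotype, the smallest two-sided p of an exact permutation test is 0.333, and that test was not run. Only the limma fit was tested on simulated data, without the filter and the floor used here. The planted differences were larger than that of any member, so recovery of smaller ones was not tested.

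The members and lists were chosen with earlier results of these data known. The rule for named genes gave the signal of every array for Lipa, Plbd1, Gga2, every member past 1.5-fold without overlap and Man2b1's disagreeing probe sets, and group means or ranges for the others. The text goes beyond it: all 4 signals are also printed for further members, chosen after their values were seen. Sample numbers are shared between genotypes but are not stated to pair samples. Alternatives were other floors, a pseudocount, other filters, quantile and median scaling, another prior, a replicate block, leaving out suffixed probe sets and leaving out each array.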

Additional observations from a re-analysis of the deposited data

How the results depend on the processing

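Over the alternatives in which each was measured, the difference ran from -0.85 to -0.50 for Map1lc3a and from 0.54 to 1.20 for Man2b1, and neither passed in limma. For Lipa, Plbd1 and Gga2, which were listed because of this comparison, the ranges of -2.14 to -0.72, -1.63 to -1.30 and -1.38 to -1.21 are a description and no sign of stability. The limma count over all probe sets, 1, was 0 with a lower floor (5th percentile) or a higher one (40th percentile), with no filter, without suffixed probe sets and without each array, and 2 with the filter at the 60th percentile and with the trend and robust prior. It was 0 for the members throughout. With the replicate block it was 0 over all probe sets and 0 for the members, and no member's call changed. The deviations of same-numbered arrays correlated at 0.01 over probe sets, so the numbers are not read as pairs. The count of higher members, 1, was 3 with no filter, 2 after quantile normalization and 0 without suffixed probe sets. The shares of all probe sets there were 7.71%, 5.31% and 5.98%, against 6.84% in the main setting. Without each array the count of higher members was 1 to 3. It was 3 when wild-type replicate 1 was left out, 2 for wild-type replicate 2 and 3 for knockout replicate 1. The count of lower members, 4, was 4 to 6 without each array. Over all probe sets 10.7% to 11.6% were then higher and 7.58% to 8.87% lower, against 6.84% and 4.20% with all arrays. These counts are therefore not read as a change in the members. The count of lower members was 1 without Lipa, Plbd1 and Gga2, an alternative added after seeing the data. The members' median ran from -0.07 to 0.09 without each array. Median scaling moved it to -0.11 and that of all probe sets from 0.03 to -0.09, so differences this small have no settled sign. Over all probe sets 510 were higher and 313 lower, against 396 and 414 after quantile normalization and 328 and 518 after median scaling. The causes were not tested. With 2 arrays per genotype, small differences were not detectable for probe sets near the floor. Large differences at strong signal could also fail to pass. The stronger Esrra probe set, 8.45-fold lower and above the floor on every array, did not pass (limma adjusted p = 0.179).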
